A study of Mus musculus with 6 samples.

Results

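The regions described here are stretches of open chromatin in mouse kidney whose strongest point lies inside protein-coding sequence, away from any start of a coding gene. They were taken from 1 deposited list of accessible intervals, made by ATAC-seq, which inserts adapters into open chromatin with the Tn5 transposase and reads where they landed. A region was chosen when its highest summit lay in a coding (CDS) segment of the canonical transcript of a protein-coding gene, outside that transcript's first exon, more than 3 kb from the transcription start site (TSS) of every protein-coding transcript, on an autosome, and with a fold enrichment of at least 5 over background. This gave 829 intervals, out of 6708 with a summit so placed at any fold and 279569 distinct intervals in all. The regions were thus chosen by their fold enrichment and summit position, and both are given as a description. A fold of at least 5 was reached by 12.4% of the intervals in coding exons, by 19.8% of those in introns after the first and by 24.4% of all autosomal intervals. Nothing is read from these shares about the chosen regions, since the rule itself set them.

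The labelled libraries were nuclei from the kidneys of 3 WT mice, in batches 1 (2 libraries) and 2 (1 library), and of 3 tubule-specific Acly knockout (Acly cKO) mice, in batches 4 (2 libraries) and 5 (1 library), all with the treatment Control. Per the study's methods the tissue was cortex, the knockout carried Acly fl/fl with Ksp-Cre, which recombines broadly in the tubular epithelium, and the WT mice were Acly fl/fl littermates without Cre. ACLY, ATP citrate lyase, makes the acetyl-CoA that histone acetylation draws on. The sources used here tie no age to these libraries. The methods also name WT libraries deposited earlier, and whether the pooled call includes them is not stated in its file. The peak names show 1 call over all libraries pooled, so genotypes could not be compared, no library has a value of its own, and no replicate error could be given. In such bulk tissue, fewer cells of a type and less open chromatin per cell cannot be told apart.

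Coding exons are best known for the codons they carry, but their DNA can also be bound by regulatory proteins, and some act as enhancers of their own or a neighbouring gene, as internal promoters, or as binding sites of CTCF, the zinc finger protein that anchors chromatin loops. Most regulatory DNA lies outside exons, at promoters and in introns and intergenic sequence. In kidney, HNF1 and HNF4 factors act in tubule cells, AP-1 responds to stress signals, and NRF1 and ETS factors bind promoters rich in CpG.

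The sequences below show the letters behind the motif counts that follow, each read from GRCm39 on the strand of its gene, over 61 bases around the match, which is in capitals. The first group holds the 5 regions of highest fold with an exact CTCF match in the 200 bp around the summit whose 61 bases are untranslated in no annotated transcript, which leaves out Synpo2l.
Capn2, chr1:182317425-182317485, minus strand, match in an intron of the canonical transcript, beside exon 6: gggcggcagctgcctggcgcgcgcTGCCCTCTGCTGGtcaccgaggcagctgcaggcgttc
Gpr153, chr4:152367811-152367871, plus strand, exon 6: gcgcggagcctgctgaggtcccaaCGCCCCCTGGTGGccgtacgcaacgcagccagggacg
Tecpr2, chr12:110902844-110902904, plus strand, exon 10: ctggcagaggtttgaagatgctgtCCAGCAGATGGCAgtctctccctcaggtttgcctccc
Utrn, chr10:12566538-12566598, minus strand, exon 27: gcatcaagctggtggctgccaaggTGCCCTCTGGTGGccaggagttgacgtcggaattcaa
Dglucy, chr12:100807642-100807702, plus strand, exon 5: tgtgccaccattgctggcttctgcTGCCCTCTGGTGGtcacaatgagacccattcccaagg

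The second group shows 1 region for each of 5 other motifs, the strongest carrier under the same limit on untranslated bases. The HNF1 and NRF1 matches differ from the motif at 1 base, since no region held an exact one that could be shown.
Nsd3 with HNF1, chr8:26200683-26200743, plus strand, exon 22: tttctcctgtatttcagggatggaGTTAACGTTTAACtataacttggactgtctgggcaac
Foxn2 with HNF4, chr17:88770251-88770311, plus strand, exon 2: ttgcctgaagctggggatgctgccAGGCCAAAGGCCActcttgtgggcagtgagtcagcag
Sptbn4 with NRF1, chr7:27060998-27061058, minus strand, exon 33: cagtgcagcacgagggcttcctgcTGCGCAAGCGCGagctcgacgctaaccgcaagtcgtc
Rin2 with AP-1, chr2:145702550-145702610, plus strand, exon 9: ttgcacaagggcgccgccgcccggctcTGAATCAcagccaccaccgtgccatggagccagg
Pomc with ETS, chr12:4009955-4010015, plus strand, exon 3: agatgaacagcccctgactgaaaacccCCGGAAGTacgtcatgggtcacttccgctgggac

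The 829 intervals had a median fold of 8.25, from 5.04 to 60.3, with the middle 50% between 6.15 and 13.1. At least 10-fold enrichment was reached by 327 of them and at least 20-fold by 80. The median -log10 q at the summit was 69.99. All 1549 distinct fold values in the list, over 749750 summits, lay within 0.05 of a whole number of equal steps of 0.0655, and each was paired with 1 q value, which means that the caller set every summit against 1 common background and that fold and q rank the intervals alike. In the usual formula of this caller 1 step is 1 read of coverage. On that scale the lowest interval stood at 77 steps, the median at 126 and the highest at 921. Relative to the fold itself, counting error is therefore largest near the threshold. The 3 intervals just inside it, in Hectd4, Eps8l2 and Smarca4, had a fold of 5.04, and the 3 just outside, in Fam3b, Gli2 and Usp54, had a fold of 4.98, 1 step lower.

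The intervals were wider than the exons they were centred on. Their median width was 1420 bp, from 169 to 14190 bp, against a median of 188 bp for the CDS segment under the summit. In 741 of 829 (89.4%) the interval covered the whole CDS segment. The median share of an interval that was coding sequence, of its own or another gene, was 23.4%. Only 13 lay wholly in coding sequence. Of all 829, 321 touched 2 or more CDS segments and 234 reached a 3′ UTR, and an interval could do both. The number of summits in an interval had a median of 3, and 180 intervals held a single one. What is described here is therefore open chromatin centred on a coding exon, with flanks outside coding sequence in most cases. The share of these flanks in introns was not measured.

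The highest fold belonged to Sptbn4, which encodes βIV spectrin of the axon initial segment, at 60.3 in exon 33 of 36 (interval chr7:27060179-27062044). Bcat2, the mitochondrial branched-chain aminotransferase, followed at 57.7 in its last exon, over a CDS segment of 36 bp (interval chr7:45236305-45240551). Both summits sat in the last stretch of the coding sequence, at 95% and 98.6% of its length. Fbxo2, a ubiquitin ligase subunit that recognises glycoproteins, had a fold of 57.1 in exon 2 (chr4:148247548-148253226). Inpp5b, an inositol polyphosphate 5-phosphatase, had 54.99 in exon 7 (chr4:124644046-124648228), and Kank3, an ankyrin repeat protein, had 53.8 in exon 3 (chr17:34034612-34039087). Slc4a5, an electrogenic sodium bicarbonate cotransporter, reached 52.3 in exon 10 of 24 (chr6:83244117-83246144).

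Cacna1a, the pore subunit of P/Q-type calcium channels, reached 50.6 in exon 47 of 47 (chr8:85361225-85367802), and Rin2, an exchange factor for Rab5, 50.02 in exon 9 (chr2:145698981-145706714). The zinc finger gene Zfp771 had 45.4 in its last exon (chr7:126850605-126855999). Lct, the lactase of the small intestine, had 41.8 in exon 7 of 17 (chr1:128230577-128232971), and Vsig8, an immunoglobulin domain protein, 41.0 in its last exon (chr1:172388924-172391790). The list of 15 closed with Zfp697, another zinc finger gene, at 39.1, Edaradd, the adaptor of the ectodysplasin receptor, at 38.6, the histone methyltransferase Nsd3 at 38.2, and the podocyte scaffold Magi2 at 37.5. GC content in the 200 bp around these 15 summits ranged from 52% in Nsd3 to 80% in Cacna1a. The cut at 15 was set for naming. No step in fold followed it, with Dhx34 at 36.8 next, and the plot of fold by rank falls on to the threshold.

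**Figure D1:**
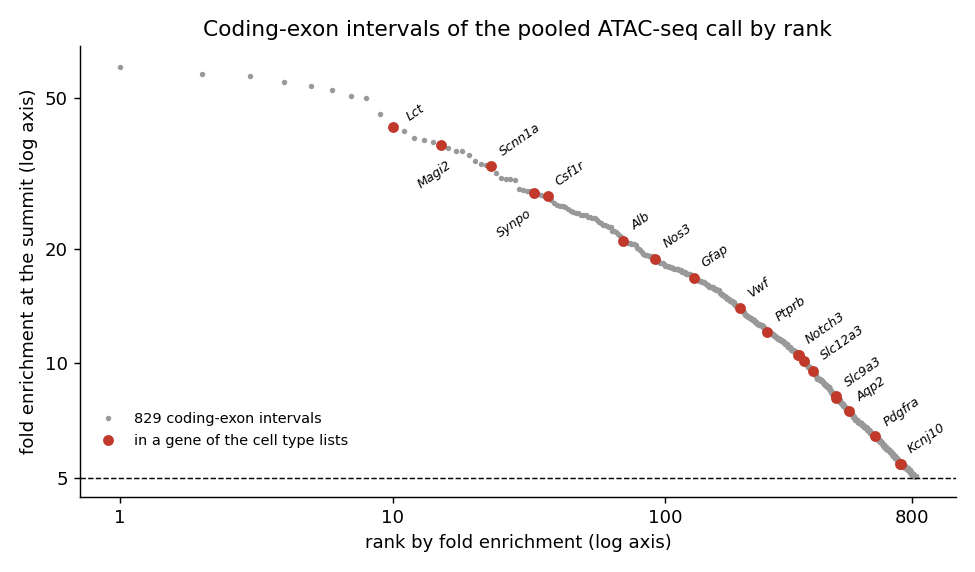
Fold enrichment of each of the 829 intervals (vertical, log axis) against its rank (horizontal, log axis). Red points are the 20 intervals in genes of the cell type and organ lists, most of them named, from Lct at 41.8 to Kcnj10 and Insrr at 5.43, and the dashed line marks the threshold of 5.

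How densely coding sequence carries such intervals was asked by counting them per megabase of sequence that could have held one. Eligible coding sequence, meaning CDS outside first exons and more than 3 kb from a coding TSS, came to 23.4 Mb and held 35.4 intervals per Mb. Eligible introns after the first, under the same distance rule, came to 570 Mb and held 15461 intervals of fold 5 or more, 27.1 per Mb. The ratio was 1.30, with a 95% counting interval of 1.22 to 1.40. Below fold 5 the same ratio was 2.28, from 251 and 110 intervals per Mb. By chromosome the density in coding sequence ran from 16.6 per Mb on chromosome 12, with 14 intervals, to 47.2 per Mb on chromosome 8, with 56.

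The ratio turned below 1 at matched GC content over most of the range. The 200 bp around the summits had a median GC content of 57%, the same as around the weaker coding-exon summits, against 50% around the intronic summits. Windows set every 200 bp along eligible CDS had a median of 50%, and windows every 10 kb along eligible introns 42.5%. In CDS windows under 40% GC there were 3.09 intervals per Mb, rising through 34.1 at 50 to 55% to 248 at 65% and over. In introns the same bands held 3.10, 67.9 and 227 per Mb. The Mb of each band was estimated from the sampled windows, and introns of 65% GC and over came to only 0.62 Mb. Coding sequence held 0.503 of the intronic density at 50 to 55% GC and 0.454 at both 55 to 60% and 60 to 65%, but 0.997 below 40% and 1.09 at 65% and over. Coding sequence thus held more open intervals per base overall and fewer per base in the 5 bands between 40 and 65% GC. No correction for GC content is named in the methods, and the part of PCR or Tn5 preference for GC in these densities was not tested.

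**Figure D2:**
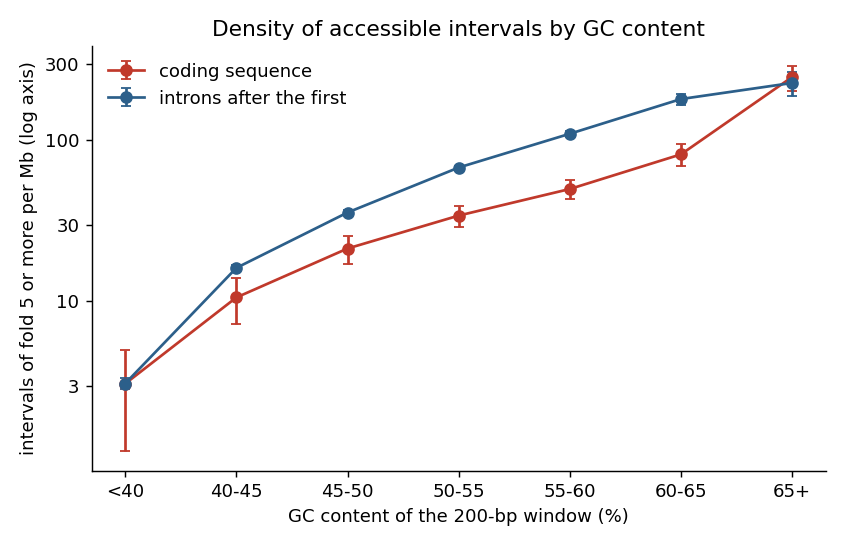
Intervals of fold 5 or more per Mb (vertical, log axis) by GC content of the 200-bp window (horizontal), in eligible coding sequence (red) and eligible introns after the first (blue). Bars are 95% counting intervals of the number of intervals and leave out error in the Mb of each band, which was estimated from sampled windows. The red points lie below the blue ones from 40 to 65% GC and meet them at both ends.

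Windows with at least 55% GC and an observed to expected CpG ratio of at least 0.6 made up 174 of the 829 (20.99%, 95% Wilson interval 18.4 to 23.9%). The share was 7.65% among coding-exon intervals under fold 5, 0.983% among the intronic intervals and 4.05% of CDS windows. The intervals given for shares here and below cover counting error only. Neighbouring regions are not independent, and these shares were compared without a test.

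The search for transcription factor motifs, on both strands of the same 200 bp, asked what the sequences share that the rule did not use. CTCF, HNF1, HNF4, NF1 and NRF1 patterns were allowed 1 mismatch, and AP-1 (TGANTCA), ETS (CCGGAAGT), ERR (TCAAGGTCA), TEAD (GGAATG) and E-box (CACGTG) were matched exactly. The ERR and HNF4 patterns share nuclear receptor core letters, so that their matches can overlap. A CTCF match was present in 126 of 829 regions (15.2%, 12.9 to 17.8%). That share was close to the 14.97% of intronic intervals of like fold (14.4 to 15.5%), and higher than the 2.84% of weaker coding-exon intervals and the 1.13% of CDS windows. Restricting all sets to 50 to 60% GC gave 15.7%, 15.1%, 2.37% and 1.44% in the same order. Exact matches stood in 36 regions (4.34%), in 5.21% of the intronic intervals and in 0.0896% of CDS windows.

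CTCF matches sat near the summits. Their median distance from the summit was 14.5 bp, and 88 of 126 lay within 25 bp. In intronic intervals the median was 13 bp, in weaker coding-exon intervals 21 bp, and from the centre of CDS windows 48 bp. Of the 126 matches, 97 lay wholly inside coding sequence and the rest overlapped or lay in flanking sequence, as in the Capn2 example printed above. The matches ran on the gene's strand in 61 of 126 (48.4%), and on the other strand in the rest. Regions with a match had a median fold of 9.07 and those without one 8.12, while the 36 with an exact match had a median of 7.73.

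The 5 strongest regions with an exact CTCF match were in Capn2 (calpain 2, fold 28.7), Synpo2l (an actin-associated protein of muscle, 26.9), Gpr153 (an orphan G protein-coupled receptor, 17.7), Tecpr2 (an autophagy protein, 15.8) and Utrn (utrophin, the relative of dystrophin, 13.3). The printed core of Utrn and Dglucy (D-glutamate cyclase, 12.6) is the same 13 letters. In both genes the CTCF motif runs on the strand opposite to the gene. Utrn exon 27 of 75 lies deep in the gene. Allowing 1 mismatch, the strongest carrier was Cacna1a at 50.6, followed by Vwa1, a matrix protein, at 36.3 and the lysophosphatidic acid receptor Lpar5 at 35.3.

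HNF1 and AP-1 matches were rarer than in introns. HNF1 was found in 8 regions (0.965%, 0.490 to 1.89%) against 3.39% of intronic intervals (3.12 to 3.69%), but 0.173% of CDS windows. In the 50 to 60% GC band the shares were 0.748% (0.255 to 2.18%) and 1.32% (1.08 to 1.60%), so the gap was then within counting error. Nsd3, with the match printed above, was the strongest of the 8, followed by Arhgef28, a guanine nucleotide exchange factor, at 15.8 and the deubiquitinase Usp37 at 13.6. AP-1 stood in 89 regions (10.7%, 8.81 to 13.03%), against 19.9% of intronic intervals and 4.63% of CDS windows, and the difference from introns held in the GC band, at 11.2% and 20.1%.

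NRF1 and ETS matches were more frequent than in introns before GC content was matched. NRF1 was found in 13 regions (1.57%, 0.919 to 2.66%) against 0.200% of intronic intervals and 0.115% of CDS windows. Sptbn4, the strongest region of all, carried one, as did Lrrc24, a leucine-rich repeat gene, at 33.3, and Synpo, which encodes the podocyte actin protein synaptopodin, at 28.0. In the GC band the NRF1 shares were 0.748% and 0.217%, with overlapping intervals (0.255 to 2.18% and 0.134 to 0.352%). ETS stood in 9 regions (1.09%) against 0.226% of intronic intervals, and in 0.493% of CDS windows. In the GC band the ETS shares were 0.748% (0.255 to 2.18%), 0.298% (0.197 to 0.451%) and 0.698%, so both gaps were then within counting error. Magi2 at 37.5 and Pomc, the precursor of ACTH and melanocortins, at 15.1 led the 9.

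For the remaining motifs the shares in coding exons and in introns of like fold lay closer together. HNF4 was found in 5.67% of the regions and 5.70% of intronic intervals, NF1 in 5.67% and 5.89%, and E-boxes in 4.70% and 4.59%. ERR stood in 0.965% and 0.550%, with overlapping intervals (0.490 to 1.89% and 0.445 to 0.679%). TEAD was at 13.6% against 17.4%, and at 17.5% against 17.1% in the GC band. HNF4 and NF1 were above their shares of 1.34% and 1.28% in CDS windows. In the plot of motif shares the coding-exon and intron bars are level for CTCF, HNF4, NF1 and E-boxes and part for AP-1 and HNF1.

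**Figure D3:**
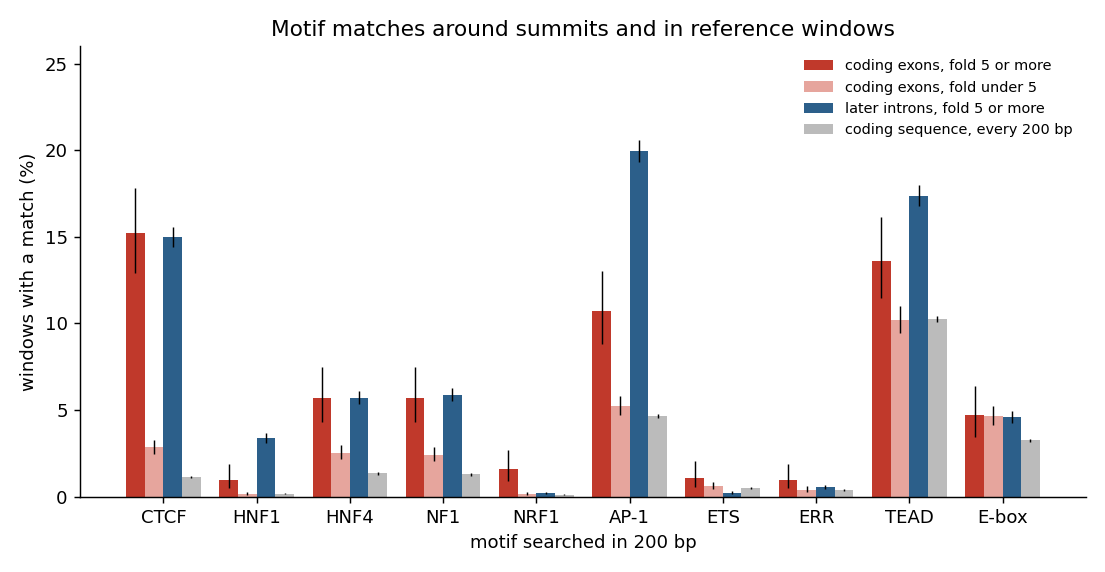
Share of 200-bp windows with a match (vertical, %) for 10 motifs, in coding-exon intervals of fold 5 or more (red) and under 5 (pink), intronic intervals of fold 5 or more (blue) and CDS windows every 200 bp (grey), with 95% Wilson intervals. CTCF stands at 15.2% in red and 14.97% in blue, and AP-1 at 10.7% and 19.9%.

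Along the coding sequence the summits leaned towards the stop codon. Cut into 10 equal parts, the CDS held 123 summits in its last part (14.8%, 12.6 to 17.4%) against 11.5% of CDS windows, and in its first part 45 (5.43%) against 5.31%. The fifth part held 66 (7.96%, 6.31 to 10.0%), below the 10.7% of windows. Weaker coding-exon intervals had 14.2% in the last part, so the lean was not larger in the stronger ones by more than counting error. The summits lay in the last coding exon in 214 regions (25.8%, 23.0 to 28.9%), against 22.1% of weaker intervals and 19.9% of windows. GC content moved with this. The regions in last coding exons had a median of 61.5% GC and the others 55.5%, and at 50 to 60% GC the share in the last coding exon was 18.5% (14.96 to 22.5%), against 19.5% of windows.

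**Figure D4:**
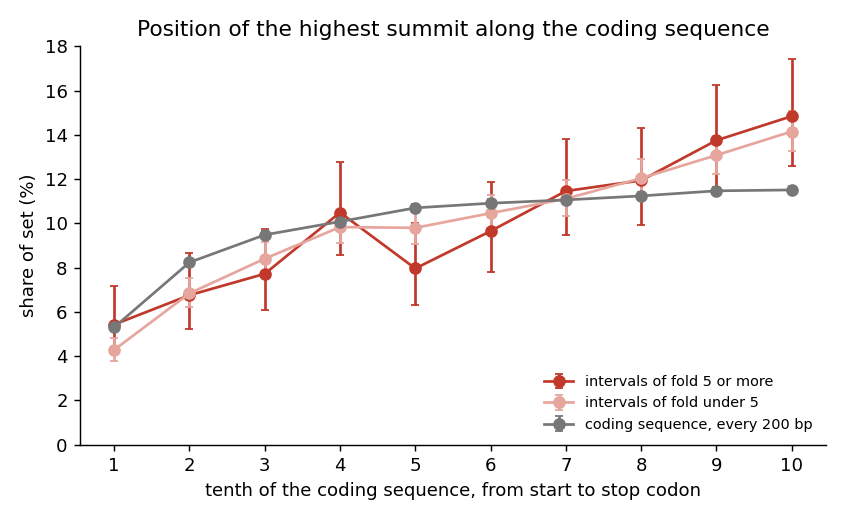
Share of each set (vertical, %) in each of 10 equal parts of the coding sequence from start to stop codon (horizontal), with 95% Wilson intervals, for coding-exon intervals of fold 5 or more (red), under 5 (pink) and CDS windows (grey). The red points rise from 5.43% in the first part to 14.8% in the last, where windows stand at 11.5%.

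Within its exon a summit tended to the middle. The central 50% of the CDS segment held 470 of 829 summits (56.7%, 53.3 to 60.03%), against 53.5% of weaker ones and 49.8% of windows. The distance to the nearer end of the segment had a median of 55 bp. By segment length the density rose from 23.1 per Mb in segments under 100 bp to 47.5 per Mb in those of 300 to 1000 bp, and was 26.7 per Mb in segments of 1000 bp and over. Exons kept in every coding transcript of the gene held 35.9% of the regions and 36.3% of windows, and exons whose CDS length is a multiple of 3 held 42.8% and 42.1%. On both of these measures of how an exon is used, the regions differed from windows by less than their counting intervals.

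Starts of transcripts annotated as other than protein-coding lay within 1 kb of 185 of the 829 summits (22.3%, 19.6 to 25.3%). The same was true of 15.1% of CDS windows, 19.5% of weaker intervals and 10.3% of intronic intervals. In 130 of the 185 the start belonged to the same gene. The nearest such transcript was a retained intron in 82, a lncRNA in 50, a transcript of a coding gene with no CDS defined in 39, a nonsense-mediated decay transcript in 9 and a miRNA in 3. Inpp5b, with such a start 150 bp from its summit, Kank3 at 225 bp, Cacna1a at 450 bp and Magi2 at 142 bp were the 4 of the 15 strongest within this distance. Regions near such starts were wider (median 1813 bp against 1318 bp) and more often rich in CpG (29.2% against 18.6%), while CTCF stood in 16.2% and 14.9%. When the distance rule was applied to starts of transcripts of any type, 519 regions remained.

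Most of the genes also had an open promoter. The highest summit within 1 kb of any coding start of the gene had a fold of at least 5 for 698 of the 829 regions (84.2%), with a median of 26.6. Of the 23.4 Mb of eligible CDS, genes with a promoter fold of 5 to 20, 20 to 50 and 50 or more held 4.66, 8.84 and 5.02 Mb. Most eligible coding sequence thus lay in such genes too, and no result about the regions is read from the 84.2%. The region in the exon exceeded that promoter summit in 218 (26.3%, 23.4 to 29.4%). In 430 the region was the strongest in its gene away from coding starts, and in 88 it was the only one there. The regions had to reach a fold of 5, while promoters and other intervals did not. The rule thus raised the counts of 218 and 430, which are given as a description. Eligible CDS in genes with no promoter summit held 12.99 regions per Mb, and CDS in genes with a promoter fold under 5, of 5 to 20, 20 to 50 and 50 or more held 44.2, 40.3, 36.9 and 36.6. The density was thus lowest where no promoter summit was called and did not rise with promoter fold beyond that. Sptbn4 had a promoter fold of 66.7 and Fbxo2 57.7, slightly above their exons. Bcat2 had 21.7 at the promoter, Inpp5b 23.4 and Slc4a5 11, all below their exons, and Cacna1a had 5.43 against 50.6.

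Of the 829 regions, 36 were in genes with no promoter summit at all. Among the 50 strongest regions, 5 had the weakest promoters, those in Lct, Tchh, Prrt3, Nkx2-6 and Vsig8. Lct had none, and no other interval within the gene away from its starts, beside a fold of 41.8 in exon 7. Tchh, which encodes trichohyalin of the hair follicle, also had none, beside a fold of 25.01 in exon 2, where the interval (chr3:93350450-93355465) was 92.9% coding and followed the 4659-bp CDS segment. Prrt3, a proline-rich membrane protein, stood at 30.5 in the exon and 2.16 at the promoter. Nkx2-6, a homeobox factor of the embryonic pharynx and heart, stood at 31.6 and 2.23, with a start of a transcript without coding sequence 9 bp from the summit. Vsig8 stood at 41.0 and 2.95. Which cells these reads came from was not tested.

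**Figure D5:**
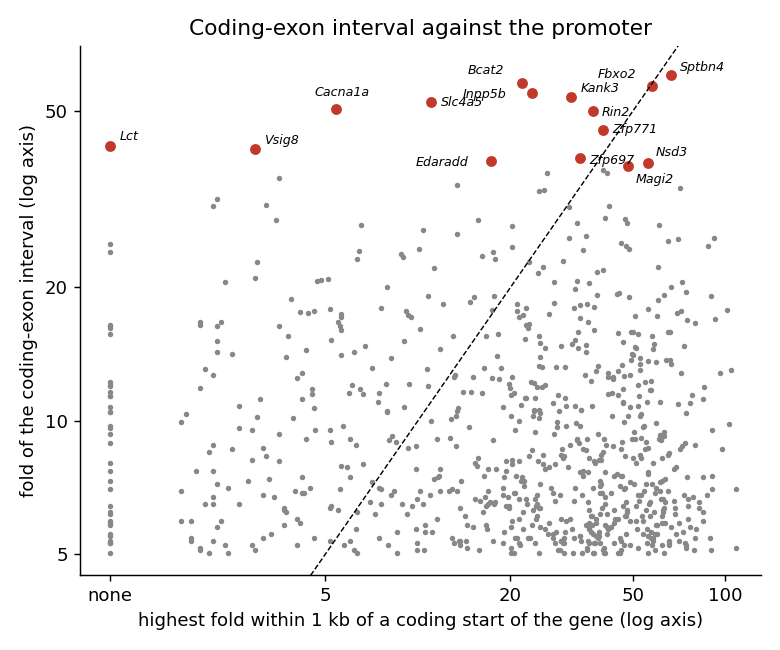
Fold of each coding-exon interval (vertical, log axis) against the highest fold within 1 kb of a coding start of its gene (horizontal, log axis, genes without a summit there at the left). The dashed line marks equal folds, the 15 strongest regions are red and named, and 218 of the 829 points lie above the line.

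The 829 regions fell in 789 genes, out of 15157 with eligible coding sequence. In 35 genes (4.44%, 3.21 to 6.11%) there were 2 or more. Syne1, which encodes the nuclear envelope protein nesprin-1 with 146 exons, held 4, with folds of 13.95 in exon 58, 10.4 in exon 55, 6.35 in exon 47 and 5.76 in exon 73. Dst, the cytoskeletal linker dystonin, held 3, at 14.6 in exon 35, 12.1 in exon 56 and 5.70 in exon 27, and the second of these carried an exact CTCF match. Ccdc162, a coiled-coil gene, held 3, at 14.5, 7.79 and 6.94. Sptbn4 held 3, at 60.3 in exon 33, 13.4 in exon 14 and 5.76 in exon 17. Behind them 31 genes tied with 2 regions each.

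The tissue label was checked against promoters of marker genes. A promoter fold of at least 5 was found for 24 of 26 proximal tubule genes, 23 of 25 of loop and distal tubule, 19 of 24 of collecting duct and 17 of 20 of podocytes. It was found for 12 of 20 endothelial, 12 of 20 stromal and 2 of 20 immune genes, for 7 of 25 genes of other organs, and for 66.7% of all protein-coding genes. Lrp2, the endocytic receptor megalin of proximal tubule, had a promoter fold of 33.1, and Umod, the uromodulin of the thick ascending limb, 20.8. Some defining genes stood below 5 at their promoters, among them Slc12a3 of the distal convoluted tubule at 4.65, Aqp2 of principal cells at 4.19, and Nphs1, the nephrin of podocytes, at 3.14.

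Tubule genes held 6 regions, from 3 lists. The proximal tubule list gave 1 of its 26 genes, Slc9a3, the sodium-proton exchanger NHE3, at 8.12 in its last exon (chr13:74312688-74317011). The loop and distal tubule list gave Slc12a3, the thiazide-sensitive cotransporter, at 9.56 in exon 5 (chr8:95059656-95062074), and Kcnj10, a basolateral potassium channel, at 5.43. Collecting duct gave Scnn1a, the α subunit of the epithelial sodium channel, at 33.0 in exon 2 (chr6:125306694-125310752), the water channel Aqp2 at 7.46 in its last exon, and Insrr, a receptor of intercalated cells, at 5.43. The Scnn1a exon stood above its promoter at 24.8, and Aqp2 stood at 4.19 at the promoter. These 3 lists made up 0.121%, 0.241% and 0.362% of the regions, against 0.208%, 0.142% and 0.120% of the eligible coding sequence, with 20, 6 and 14 further intervals under fold 5.

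Genes of podocytes, vessels, stroma and immune cells held 11. Magi2 at 37.5 in its last exon (chr5:20905439-20908343) and Synpo at 28.0 (chr18:60725267-60730063) were the 2 podocyte genes of 20. The endothelial list gave Nos3, endothelial nitric oxide synthase, at 18.9 in exon 25 of 26, Vwf, von Willebrand factor, at 13.95, the phosphatase Ptprb at 12.1, and Plvap, the protein of fenestral diaphragms, at 10.2. In these 4 the promoter folds were 3.86, 3.73, 7.86 and 3.93, each below the exon. The Nos3 and Vwf summits lay 52 and 153 bp from a start of a transcript annotated as other than protein-coding. For Ptprb and Plvap that distance was 11952 and 3966 bp. In Vwf, alone of the 4, another interval away from coding starts was stronger, at 22.3. The Ptprb region carried an exact CTCF match. Stroma gave Notch3, a receptor of mural cells, with folds of 10.5 in both exon 33 and exon 24, the proteoglycan Cspg4 at 8.18 and the growth factor receptor Pdgfra at 6.42. The immune list gave Csf1r, the macrophage colony-stimulating factor receptor, at 27.6 in exon 3 (chr18:61238468-61245293). These 4 lists made up 0.241%, 0.483%, 0.483% and 0.121% of the regions, against 0.216%, 0.195%, 0.201% and 0.0947% of the eligible coding sequence.

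Genes of other organs gave 3 of 25. Besides Lct these were Alb, albumin of the liver, at 21.02 in exon 7 of 15 (chr5:90614371-90615807), and Gfap, the astrocyte filament protein, at 16.8 in exon 6 (chr11:102783658-102784832). Their promoter folds were 2.95 for Alb and 1.964 for Gfap, so an exon was open in each where the promoter stood below 5. The list made up 0.362% of the regions and 0.727% of the eligible coding sequence. None of Jak1, Jak2, Has3, Fn1, Col5a1, Col4a5, Col27a1 and Acly, genes whose accessibility or deletion the study was about, held a region of fold 5 or more, though all 8 had a promoter fold of at least 5 and 7 intervals under fold 5 lay in their coding exons. Only 7 of the 8 had eligible coding sequence, together 0.122% of it, and 789 of 15157 genes held a region, so a count of 0 is near the background. Of STAT genes, which act downstream of JAK kinases, Stat5b had 17.8 in exon 13, and Stat2 had 7.20 in exon 9 and 5.24 in exon 19. The Stat5b exon and promoter, at 17.8 and 17.5, were 5 steps of fold apart.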

How the data were processed

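Reads were cleaned with fastp by the authors, who placed them on mm39 (GRCm39) with Bowtie2 2.3.4.3, dropped duplicates and reads without a unique position, called peaks with MACS3 3.0.0 and removed blacklisted and non-standard sequence with bedtools 2.29.1, per the methods and the submitters' processing notes. The deposited list gives, for each summit, the fold enrichment over background (a linear ratio), the -log10 q written by the authors' caller, and how many bp into its interval the summit lies. Library depth is unknown. A reported shift and extension of reads moves summits, and pooling hides which genotype gave the reads. The deposited list of unfiltered summits was not used.

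Rows were merged into distinct intervals, each represented by its summit of highest q and written from 1. GENCODE M39 placed the summits. Windows of 200 bp around summits, every 200 bp of eligible CDS and every 10000 bp of eligible introns were compared for GC, CpG and 10 motifs. Shares have Wilson 95% intervals, and no test was run. Placement and motif search were tested on simulated data. Tables were handled with pandas 2.3.3 in Python 3.11.15, sequence was read with pysam 0.24.0, and intervals came from scipy 1.17.1. Alternatives were folds of 3 and 10, CDS of any coding transcript, starts of any transcript, placement by midpoint, a 100-bp window, CTCF without mismatch and matched GC bands. Only autosomes were used.

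The regions, gene lists and motifs were chosen with earlier results of these data known. Named are the 15 genes of highest fold, those with most regions, members of marker lists (at most 4 a list), genes the study names, the 3 regions on either side of the threshold, the 5 with the weakest promoters among the 50 strongest and the 5 strongest with an exact CTCF match. Other named genes (STAT genes and leading carriers of a motif) were chosen after their values were seen.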

Additional observations from a re-analysis of the deposited data

How the results depend on the processing

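No paired analysis was possible because the libraries were called as 1 pool, and for the same reason no replicate could be left out. Under the alternatives, 18 of the values stayed within the 95% interval of the reported value, or within 1.5 times of it for the number of regions, and 18 did not. The number of regions, 829, became 327 at fold 10, 1720 at fold 3 and 519 with starts of any transcript type. The density ratio of 1.30 became 1.47 at fold 3 and 1.42 by midpoint, and turned to 0.503 and 0.454 in windows of 50 to 55% and 55 to 60% GC, bands added after seeing the data. Median GC, 57%, became 59% at fold 10, 56% with starts of any type and 55.5% by midpoint. The CTCF share of 15.2% became 11.7% at fold 3, 18.9% by midpoint and 4.34% without mismatch. The share in the last coding exon, 25.8%, became 30.3% at fold 10, 30.25% with starts of any type and 18.5% at 50 to 60% GC, a band also added later. The share of genes with 2 or more regions, 4.44%, became 2.51% at fold 10 and 10.1% at fold 3. The cause of these shifts was not tested. With 1 pooled call, the precision of any value across mice is unknown.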
